A study of Mus musculus with 12 samples.

Results

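The 39 Hox genes of the mouse were followed in RNA sequencing of colonic epithelium, in tissue and in culture. A gene was a member if its symbol was Hoxa, Hoxb, Hoxc or Hoxd followed by a paralog number, which gave 39 of the 23420 genes counted: 11 of Hoxa, 10 of Hoxb, 9 of Hoxc and 9 of Hoxd. The 12 libraries held total RNA from wild-type mouse colon, with 3 libraries in each of 4 groups: crypts, and contiguous monolayers at day 3, day 4 and day 5. All cells came from colonic crypts of wild-type mice aged 6 to 10 weeks, and the labels name no engineered allele or drug. For the monolayers, crypt cells were first expanded on collagen and then plated on a scaffold cross-linked in a gradient, and the whole monolayer was lysed. The labels give these monolayers an electrical resistance that was highest on day 4 (623 ± 15 ohm cm2), lower on day 3 (526 ± 56) and lowest on day 5 (407 ± 53); they do not name the kind of error. The labels describe all groups in 1 shared protocol. They do not say whether numbered replicates were separate mice or cultures, so every p-value here reflects just the variation among these libraries, which may be technical.

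Hox genes encode homeodomain transcription factors that give cells their address along the head-to-tail axis of the embryo. They lie in 4 clusters, and within a cluster genes with low paralog numbers act towards the head and genes with high numbers towards the tail. Genes with the same number in different clusters are paralogs, copies of 1 ancestral gene. The gut keeps a regional Hox pattern into adult life, with posterior genes such as Hoxb13 used in the distal colon. Cdx factors and retinoic acid turn Hox genes on in the embryo, Polycomb complexes keep them silent, and Trithorax proteins keep them active. Numbers 1 to 3 are called anterior here, 4 to 8 central and 9 to 13 posterior.

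Depth was 4518314 to 14290393 reads in genes per library, and Hox genes held 1840 to 5025 of them. Levels are given as CPM, read counts relative to the reads in genes of the library, after TMM scaling, a correction for differences in library composition. A count of 0 in a library allows a level of up to 0.21 to 0.664 CPM, the worth of 3 reads, and such limits cover counting error only. Epithelial marker genes summed to 11392 to 13420 CPM in crypts and 12004 to 15677 in monolayers, with none of the 11 at 0 in either. The 17 fibroblast and smooth muscle markers summed to 54, 113 and 27 CPM in crypts 1, 2 and 3, with Acta2, Actg2 and Cnn1 at 0, and to 1.8 to 5.44 CPM in monolayers, with Lum, Dcn and Thy1 at 0. The 15 immune markers summed to 21.6 to 49.5 CPM in crypts and 24.7 to 54.6 in monolayers, with 1 and 5 of them at 0, and of the 8 tested 2 were higher and 5 lower in monolayers. Endothelial markers (5.2 to 7.95 against 0.717 to 4.86 CPM) and enteric neuron and glia markers (3.26 to 9.56 against 2.90 to 7.53 CPM) were low in both, with 3 of 9 and 5 of 10 at 0 in crypts and 1 and 3 at 0 in monolayers. The part these cells play in the Hox values was not tested. Fewer cells of a type and less RNA per cell cannot be told apart in such bulk libraries.

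Of the 39 Hox genes, 31 had at least 1 read and 19 had a read in all 12 libraries. Hoxa was complete, with all 11 genes read and tested. Of the Hoxb genes, 8 of 10 were tested, Hoxb2 had 10 reads in crypts and 7 in all monolayers together, and Hoxb1 had none. Hoxc was close to empty: Hoxc4, Hoxc5, Hoxc10, Hoxc11, Hoxc12 and Hoxc13 had 0 reads in all 12 libraries, which allows a level of up to 0.0263 CPM over the pooled 114010705 reads. The other 3 Hoxc genes were each read in a single library: Hoxc6 with 1 read at day 3, Hoxc8 with 6 reads in day 4 replicate 3, and Hoxc9 with 4 reads in crypts 3. Among Hoxd genes, 5 of 9 were tested and Hoxd1 had no read. The tested genes are the 24 that passed edgeR's filter on low counts. Hoxb8 and Hoxd4 passed it mainly through crypts, with 10 reads or more in fewer than 3 of the 9 monolayer libraries, and Hoxd11 and Hoxd12 had 10 reads or more in fewer than 2 of the 3 crypt libraries. A gene that passes only through the group where it is high has to differ, so counts of called members are descriptions.

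**Figure D1:**
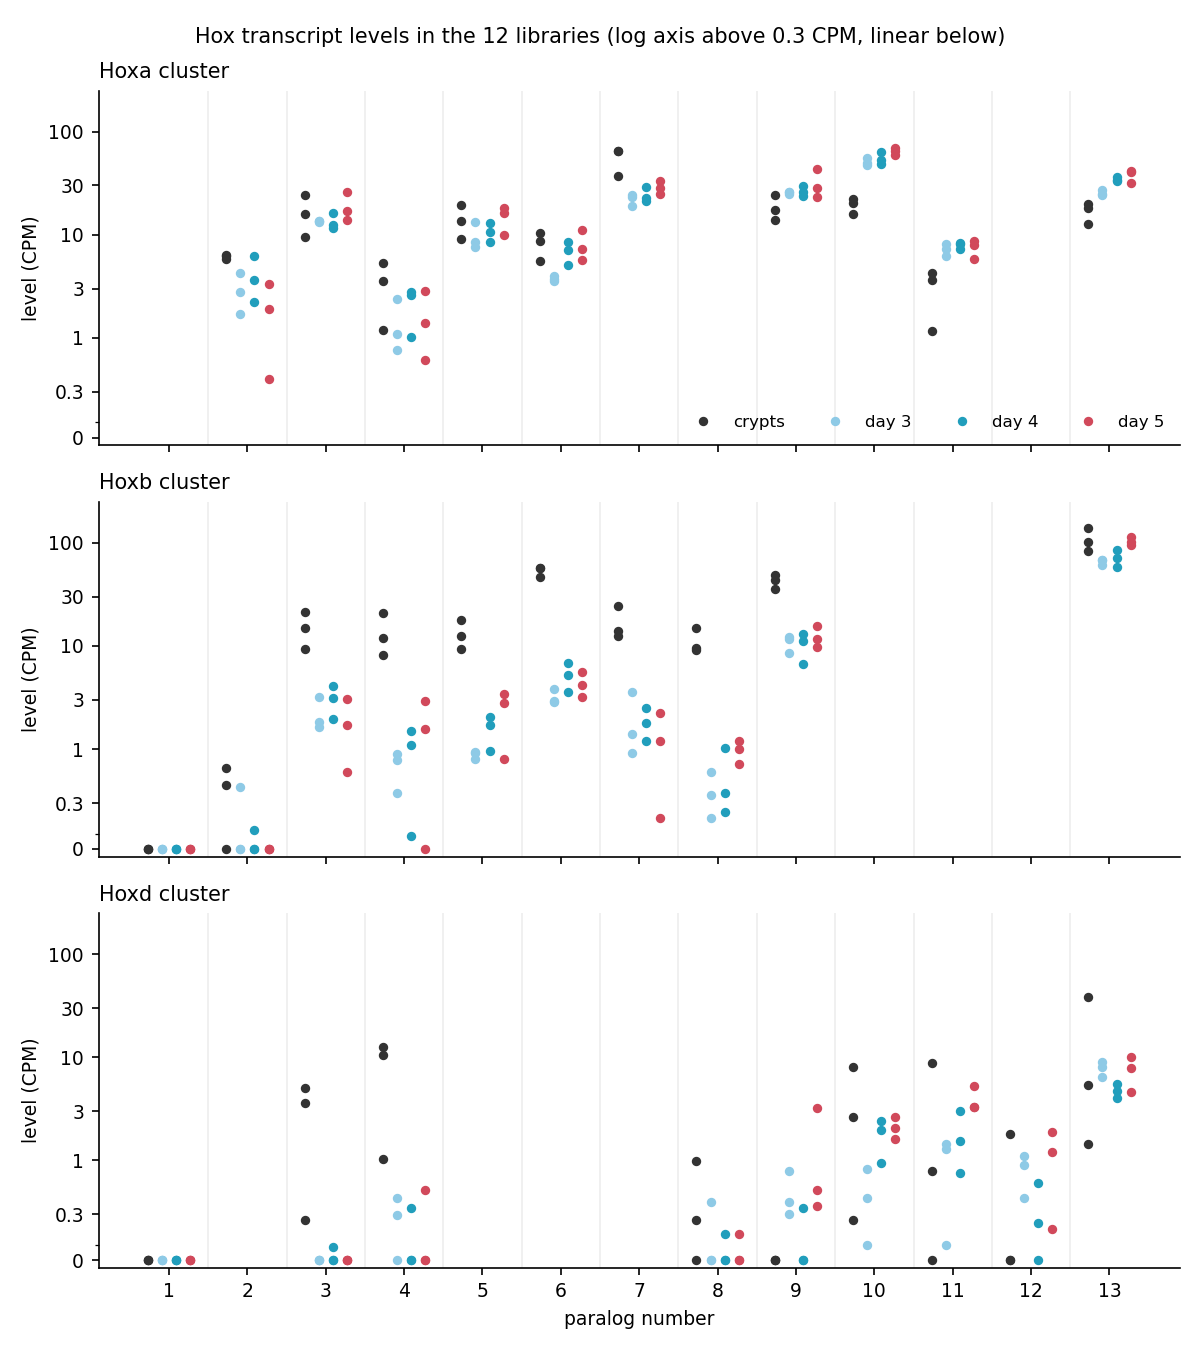
Level of Hoxa, Hoxb and Hoxd genes (vertical axis, CPM, logarithmic above 0.3 and linear below) by paralog number (horizontal axis), with 1 point per library, coloured by group. Hoxb3 to Hoxb9 lie lower in every monolayer library than in every crypt library, Hoxa10, Hoxa11 and Hoxa13 lie higher, and the crypt points of Hoxd genes are spread widely.

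The first question was how Hox expression in monolayers compared with crypts. Hoxb genes from Hoxb3 to Hoxb9 fell by between 3.82-fold (Hoxb9) and 18.5-fold (Hoxb8). Hoxd4, which passed the filter through crypts alone, and Hoxb8, which passed it mainly through crypts, were among the genes called lower. The posterior Hoxa genes Hoxa9, Hoxa10, Hoxa11 and Hoxa13 rose by between 1.5-fold and 2.94-fold. The edgeR quasi-likelihood test, adjusted by Benjamini-Hochberg over all 12863 genes tested, called 15 of the 24 tested Hox genes (62.5%), 4 higher (16.7%) and 11 lower (45.8%). Over all genes tested, 63.5% were called, 30.7% higher and 32.8% lower, so the share of Hox genes called was near the background. The median log2 fold change was -1.05 over the 24 Hox genes and -0.03 over all genes tested. With library totals alone in place of TMM, the median of all genes moved to -0.21 and the calls to 24.1% higher and 39.7% lower. All monolayer libraries lay below all crypt libraries for 9 of the 24 tested Hox genes and above them for 3, against 23.2% and 22.7% of all genes tested.

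Hoxb8, a central gene of the Hoxb cluster, had the largest fold decrease in the cluster. Its levels were 9.21, 9.65 and 15 CPM in crypts 1 to 3 and 0.2, 0.358 and 0.606 in the day 3 monolayers, 1.03, 0.374 and 0.242 in those of day 4 and 1.01, 0.717 and 1.21 in those of day 5. All 9 monolayer values lay below all 3 crypt values. Hoxb8 passed the filter mainly through crypts, so its fitted log2 fold change of -4.21 ± 0.40 (SE) is given as a description. The promoter windows of Hoxb8 and Hoxd4, the tested genes with the largest decreases, are printed below, because Cdx factors, whose genes are described further on, are known to bind near Hox genes. Those of Hoxa13 and Hoxa10, which rose, are printed as well. Each is the 250 bases before the RefSeq start on the gene's strand (GRCm38.p6), with matches to TTTATG (the Cdx core), TATAAA (the TATA box) and CCAAT in capitals, on either strand:
Hoxb8, chr11:96281655-96281904, plus strand: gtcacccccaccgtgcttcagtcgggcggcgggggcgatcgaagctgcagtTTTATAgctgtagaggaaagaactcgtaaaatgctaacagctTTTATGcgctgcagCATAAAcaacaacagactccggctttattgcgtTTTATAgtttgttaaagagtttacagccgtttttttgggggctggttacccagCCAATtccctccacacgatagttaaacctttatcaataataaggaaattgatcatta
Hoxd4, chr2:74721728-74721977, plus strand: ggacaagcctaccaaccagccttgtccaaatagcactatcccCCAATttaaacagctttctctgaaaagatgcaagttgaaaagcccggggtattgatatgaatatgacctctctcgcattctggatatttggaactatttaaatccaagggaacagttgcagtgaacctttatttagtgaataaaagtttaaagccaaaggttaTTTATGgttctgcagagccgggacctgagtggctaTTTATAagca
Hoxa13, chr6:52260881-52261130, minus strand: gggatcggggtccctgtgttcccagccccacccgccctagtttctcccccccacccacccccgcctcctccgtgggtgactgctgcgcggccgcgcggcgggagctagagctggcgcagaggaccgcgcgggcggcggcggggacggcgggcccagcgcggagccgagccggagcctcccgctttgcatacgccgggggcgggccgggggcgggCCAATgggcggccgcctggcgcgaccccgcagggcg
Hoxa10, chr6:52234940-52235189, minus strand: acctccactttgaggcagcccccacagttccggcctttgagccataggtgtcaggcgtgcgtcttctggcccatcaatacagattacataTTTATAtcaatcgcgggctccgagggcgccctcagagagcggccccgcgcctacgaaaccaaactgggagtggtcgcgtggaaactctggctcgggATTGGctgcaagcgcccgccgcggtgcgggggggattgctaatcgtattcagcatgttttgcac

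The Hoxb8 window held 2 matches to TTTATG, 2 to TATAAA and 1 to CCAAT, and the Hoxd4 window 1 of each. The Hoxa13 window held CCAAT alone, and the Hoxa10 window printed 1 TATAAA and 1 CCAAT. A second Hoxa10 window, chr6:52240855-52241104, held none of the 3 motifs. Of 24 windows found for 22 Hox genes, 5 held TTTATG (Hoxa7, Hoxb8, Hoxd3, Hoxd4 and 1 of the 2 Hoxd11 windows), or 20.8%, against 10.8% of 32851 windows of all genes. TATAAA was in 4 of the 24, or 16.7%, against 12.4%. CCAAT was in 14, or 58.3%, against 33.8%. Both strands were searched, and each motif was counted by itself whether or not another overlapped it. The median number of CpG pairs per window was 12.5 for Hox genes and 6 for all. Of the genes called lower, Hoxa7, Hoxb8 and Hoxd4 had TTTATG in their windows, and Hoxb4 and Hoxa2 did not. The Hoxa7 window overlaps an exon. The bases after it were not found near the start of a GENCODE M21 transcript of Hoxa7, so its place as a promoter is uncertain. Hoxb8 and Hoxd4 passed the filter mainly or only through crypts, so this split is a description. No window was found for Hoxb3, Hoxb5, Hoxb6, Hoxb7, Hoxb9 or Hoxb13. Genes called higher lacked TTTATG, as did most windows of all genes, and Hoxd11, with a match in 1 window, was not called. These matches describe the letters and do not show that a factor binds there. The part of Cdx factors in the Hox changes was not tested.

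The other central Hoxb genes fell as well. Hoxb6 had the highest level among them, 56.4, 56.7 and 47.1 CPM in crypts 1 to 3 against 2.89, 2.94 and 3.79 in the day 3 monolayers, 3.61, 6.91 and 5.2 in those of day 4 and 3.22, 5.55 and 4.16 in those of day 5. It fell 12.6-fold (log2 fold change -3.66 ± 0.18, edgeR adjusted p = 2.84e-12). Hoxb4, a gene known from the growth of blood stem cells, stood at 8.2, 12 and 21 CPM in crypts and 0.898, 0.788 and 0.379 in the day 3 monolayers, 0.0861, 1.49 and 1.09 in those of day 4 and 0, 2.96 and 1.56 in those of day 5. Its highest value was in crypts 3, and it fell 13.7-fold (-3.78 ± 0.52, edgeR adjusted p = 4.25e-06). Hoxb5, which acts in enteric neural crest cells of the embryo, measured 9.41, 18 and 12.4 CPM in crypts and 0.798, 0.932 and 0.909 in the day 3 monolayers, 1.72, 2.05 and 0.968 in those of day 4 and 0.806, 2.78 and 3.46 in those of day 5, a decrease of 8.77-fold (-3.13 ± 0.34, edgeR adjusted p = 2.39e-07). Hoxb7 measured 14, 12.6 and 24.5 CPM in crypts and 1.4, 3.58 and 0.909 in the day 3 monolayers, 2.5, 1.21 and 1.81 in those of day 4 and 0.201, 2.24 and 1.21 in those of day 5. Its decrease was 9.97-fold (-3.32 ± 0.39, edgeR adjusted p = 6.7e-07). For all 5 genes from Hoxb4 to Hoxb8, no monolayer library overlapped a crypt library.

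Hoxb3, at the anterior side of this block, stood at 9.41, 21.5 and 15.1 CPM in crypts and 3.19, 1.65 and 1.82 in the day 3 monolayers, 3.1, 1.96 and 4.11 in those of day 4 and 0.604, 3.05 and 1.73 in those of day 5. It fell 6.54-fold (-2.71 ± 0.35, edgeR adjusted p = 1.62e-06). Hoxb9, which patterns the rib cage in the embryo, was at 44, 35.6 and 48.5 CPM in crypts and 8.48, 11.7 and 12.3 in the day 3 monolayers, 11.2, 6.73 and 13.2 in those of day 4 and 11.7, 15.5 and 9.7 in those of day 5. Its decrease of 3.82-fold was the smallest of the 7 neighbours (-1.93 ± 0.19, edgeR adjusted p = 4.04e-08). Without crypts 2, the library with the highest stromal sum, all 7 genes were still called lower. The log2 fold changes were then smaller in size for Hoxb3 (-2.39), Hoxb5 (-2.85) and Hoxb6 (-3.61) and larger for Hoxb4 (-3.87), Hoxb7 (-3.49), Hoxb8 (-4.31) and Hoxb9 (-2.05). The part of stromal cells in these decreases was not tested.

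Hoxb13, the most posterior gene of its cluster, set apart from Hoxb9 by a wide stretch without Hox genes, was the most abundant Hox gene per length in crypts and in monolayers. It was at 140, 101 and 83.2 CPM in crypts and 68.6, 68.2 and 61.6 in the day 3 monolayers, 84.9, 71.6 and 58.7 in those of day 4 and 113, 96.3 and 101 in those of day 5. The groups overlapped, with crypts 2 and crypts 3 inside the monolayer range. Averaged over the 3 days it fell 1.36-fold (-0.44 ± 0.13, edgeR adjusted p = 0.00543), and the call was lost without crypts 1 (-0.22, edgeR adjusted p = 0.127). Summed over the cluster, Hoxb reads made up 51.7, 67.3 and 59% of all Hox CPM in crypts and 29.7 to 35.6% in monolayers. The summed level was 275 ± 13.3 CPM (SD, n = 3) in crypts and 103 ± 19.9 (n = 9) in monolayers. Within each library the ratio of Hoxb13 to the sum of Hoxb3 to Hoxb9 was 0.454 to 0.928 in crypts and 2.2 to 6.46 in monolayers, without overlap.

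**Figure D2:**
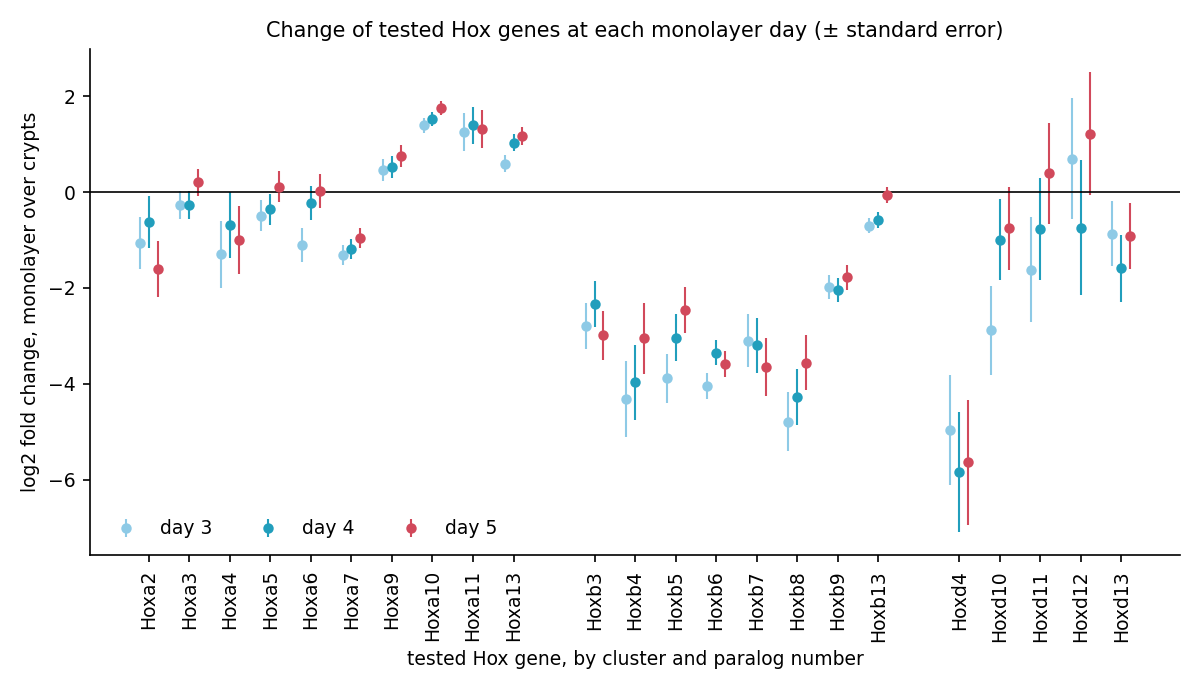
Log2 fold change over crypts (vertical axis) of tested Hox genes, ordered by cluster and paralog number (horizontal axis), at each monolayer day, with standard errors as bars. The points from Hoxa9 to Hoxa13 lie above 0 and those from Hoxb3 to Hoxb9 below it on all 3 days, and Hoxb13 moves from -0.70 at day 3 to -0.06 at day 5.

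Posterior Hoxa genes went the other way. Hoxa10, which patterns the uterus and the lumbar spine, was at 22, 20.3 and 16 CPM in crypts and 54.9, 49.5 and 47.2 in the day 3 monolayers, 48.6, 53 and 64 in those of day 4 and 59.2, 64.2 and 70 in those of day 5. It rose 2.94-fold (1.55 ± 0.13, edgeR adjusted p = 8.68e-09), with every monolayer library above every crypt library. Hoxa13, needed for the hindgut and cloaca of the embryo, was at 19.8, 12.8 and 18 CPM in crypts and 27, 24 and 25 in the day 3 monolayers, 33.7, 36.1 and 33.4 in those of day 4 and 40.3, 41.1 and 31.9 in those of day 5. Its groups did not overlap, and it rose 1.91-fold (0.93 ± 0.15, edgeR adjusted p = 2.85e-05). Hoxa11, a limb and uterus gene, was at 3.6, 1.17 and 4.24 CPM in crypts and 8.18, 6.24 and 7.19 in the day 3 monolayers, 8.18, 7.29 and 8.35 in those of day 4 and 5.84, 7.88 and 8.66 in those of day 5. The increase was 2.49-fold (1.31 ± 0.34, edgeR adjusted p = 0.00274). Its antisense partner Hoxa11as was at 127, 69 and 100 CPM in crypts and between 49.3 and 135 (median 64.9) in monolayers, with overlap. Over the mean of the days it was called lower (-0.37 ± 0.15, edgeR adjusted p = 0.0392), a call lost in 7 of 16 alternatives (-0.16, edgeR adjusted p = 0.398 without crypts 1). It was called lower at day 3 and day 4 but not at day 5 (0.15 ± 0.19, edgeR adjusted p = 0.504), and it rose from day 3 to day 5 (0.88 ± 0.19, edgeR adjusted p = 0.00241). Whether the counting used strand is not given, so reads of the pair cannot be told apart with certainty. Hoxa9, known from blood progenitors, was at 24.4, 14 and 17.3 CPM in crypts and 24.7, 26 and 25.7 in the day 3 monolayers, 29.8, 25.7 and 23.7 in those of day 4 and 43.1, 23.3 and 28.1 in those of day 5, with overlap at crypts 1. It rose 1.5-fold (0.59 ± 0.19, edgeR adjusted p = 0.0126), a call lost without crypts 2 (0.43, edgeR adjusted p = 0.0861), without crypts 3 (0.55, edgeR adjusted p = 0.0504) or with no TMM factors (0.40, edgeR adjusted p = 0.0707).

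None of Hoxa2 to Hoxa7 was called higher. Hoxa7, the most abundant Hoxa gene of crypts per length, was at 64.6, 36.9 and 64.6 CPM in crypts and 24.3, 19.1 and 23.2 in the day 3 monolayers, 22.8, 28.7 and 21.1 in those of day 4 and 33.2, 24.6 and 28.4 in those of day 5. Without overlap, it fell 2.23-fold (-1.16 ± 0.16, edgeR adjusted p = 3.97e-06). Hoxa2, which patterns the second pharyngeal arch, was at 6.2, 6.39 and 5.77 CPM in crypts and 2.79, 1.72 and 4.24 in the day 3 monolayers, 3.61, 2.24 and 6.17 in those of day 4 and 0.403, 3.32 and 1.91 in those of day 5. It fell 2.14-fold (-1.10 ± 0.43, edgeR adjusted p = 0.0333), but the call was lost in 7 of 16 alternatives, among them each omission of a crypt library (-1.06 to -1.13, edgeR adjusted p = 0.0644 to 0.0777). Hoxa5, a gene of lung and gut patterning, was at 19.2, 9 and 13.6 CPM in crypts and 13.4, 7.6 and 8.56 in the day 3 monolayers, 13.1, 10.6 and 8.47 in those of day 4 and 9.87, 18.1 and 16.1 in those of day 5. Hoxa3, which patterns the third pharyngeal arch, was at 24, 9.52 and 16 CPM in crypts and 13.6, 13.5 and 13.4 in the day 3 monolayers, 16.4, 11.6 and 12.5 in those of day 4 and 25.8, 17.1 and 13.9 in those of day 5. The groups of both overlapped and neither passed the test (-0.25 ± 0.26, edgeR adjusted p = 0.415, and -0.11 ± 0.24, edgeR adjusted p = 0.7).

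Hoxa6 was at 10.4, 8.61 and 5.5 CPM in crypts and 3.99, 3.73 and 3.56 in the day 3 monolayers, 8.43, 5.04 and 7.14 in those of day 4 and 5.64, 11.2 and 7.27 in those of day 5. Its 3 values at day 3 lay below all crypt values, while those at day 4 and day 5 overlapped them. Hoxa4 was at 1.2, 3.52 and 5.32 CPM in crypts and 2.39, 1.08 and 0.757 in the day 3 monolayers, 1.03, 2.62 and 2.78 in those of day 4 and 0.604, 2.87 and 1.39 in those of day 5. Neither passed the test over the mean of the days (Hoxa6 -0.44 ± 0.29 and Hoxa4 -0.99 ± 0.54, with edgeR adjusted p = 0.194 and 0.118). Hoxa4 was called lower without crypts 1 (-1.36, edgeR adjusted p = 0.0442).

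The Hoxa cluster as a whole had a summed level of 162 ± 37.6 CPM (SD, n = 3) in crypts and 190 ± 23.8 (n = 9) in monolayers, while its make-up shifted. Hoxa9 to Hoxa13 held 12.1 to 12.4% of all Hox CPM in crypts and 37.6 to 45.1% in monolayers. Within each library, the ratio of Hoxa10 to Hoxa7, which lie in the same cluster, was 0.247 to 0.551 in crypts and 1.78 to 3.04 in monolayers. This ratio does not depend on the scaling of the library. Hoxa4 to Hoxa7 held 14.6 to 19.7% of Hox CPM in crypts and 12.3 to 16.5% in monolayers.

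**Figure D3:**
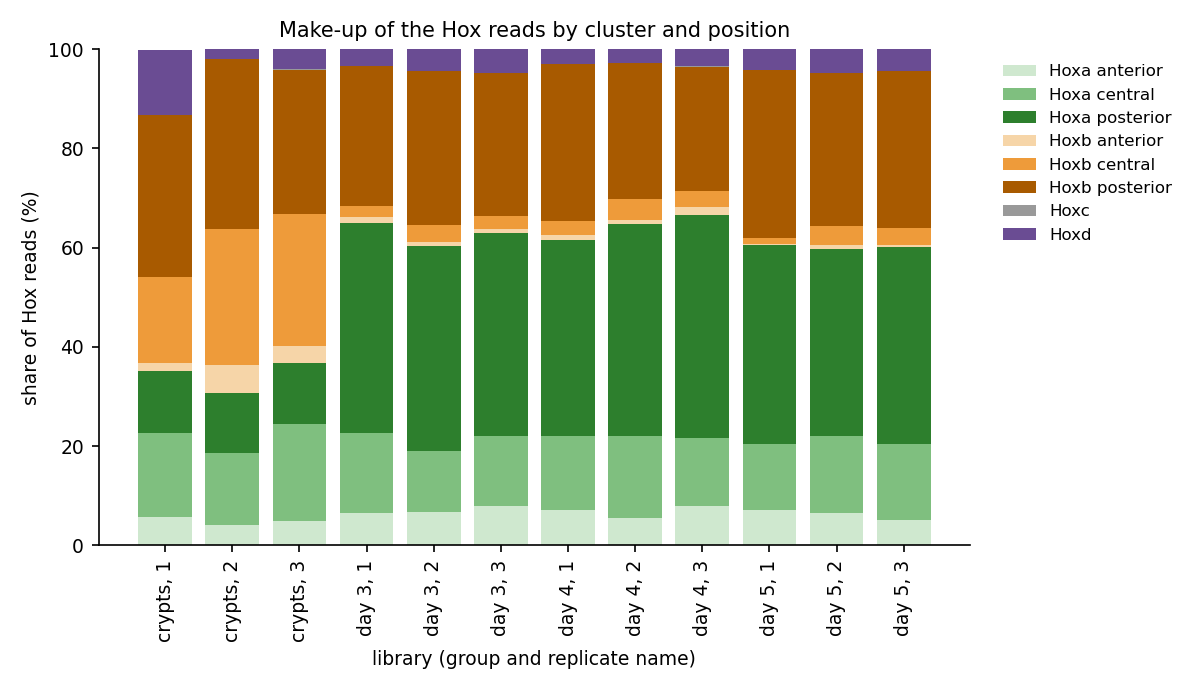
Share of each library's Hox CPM (vertical axis, percent) held by Hoxa, Hoxb, Hoxc and Hoxd genes, with Hoxa and Hoxb split into anterior, central and posterior genes, in each of the 12 libraries (horizontal axis). Central Hoxb holds 17.3 to 27.4% in crypts and 1.41 to 4.22% in monolayers, and posterior Hoxa holds 12.1 to 12.4% and 37.6 to 45.1%.

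Posterior Hoxd genes varied widely between the crypt libraries. Hoxd13, which shapes digits and the anal sphincter, was at 38, 5.35 and 1.44 CPM in crypts 1, 2 and 3 and 6.49, 7.96 and 9.01 in the day 3 monolayers, 4.73, 5.51 and 3.99 in those of day 4 and 4.63, 10 and 7.79 in those of day 5. Crypts 1 lay above all monolayers and crypts 3 below them. The change did not pass the test (-1.12 ± 0.54, edgeR adjusted p = 0.0764), and it turned to 1.0 without crypts 1 (edgeR adjusted p = 0.0574). A decrease was called without crypts 2 or crypts 3 (-1.52 and -1.69, edgeR adjusted p = 0.019 and 0.00184), with no TMM factors and with no filter. Hoxd11, a forearm gene of the limb, was at 8.8, 0.782 and 0 CPM in crypts and 0.0998, 1.29 and 1.44 in the day 3 monolayers, 1.55, 0.747 and 3.02 in those of day 4 and 5.24, 3.32 and 3.29 in those of day 5. Hoxd10, its neighbour, was at 8, 0.261 and 2.61 CPM in crypts and 0.0998, 0.43 and 0.833 in the day 3 monolayers, 0.947, 1.96 and 2.42 in those of day 4 and 2.62, 1.61 and 2.08 in those of day 5. Hoxd12 was read in crypts 1 alone, at 1.8 CPM, and stood at 1.1, 0.43 and 0.909 in the day 3 monolayers, 0.602, 0 and 0.242 in those of day 4 and 0.201, 1.88 and 1.21 in those of day 5. In all 4 posterior Hoxd genes tested, crypts 1 had the highest crypt value.

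Hoxd10, Hoxd11 and Hoxd12 did not pass the test either (-1.54 ± 0.67, -0.67 ± 0.85 and 0.40 ± 1.13, with edgeR adjusted p = 0.0509, 0.517 and 0.778). Without crypts 1, Hoxd11 turned to 2.38 (edgeR adjusted p = 0.066) and Hoxd10 moved to -0.30 (edgeR adjusted p = 0.763). Hoxd12 then had no read left in crypts, so its value of 5.70 is a description. Hoxd10 was called lower in 6 of 16 alternatives, DESeq2 among them (adjusted p = 0.0356). Hoxd9 had 0 reads in crypts and 46 over the 9 monolayer libraries, at least 4.06-fold higher against a floor of 3 reads pooled over crypts, and was not tested. The coefficient of variation over the 3 crypt libraries was 134% for Hoxd13, 152% for Hoxd11 and 109% for Hoxd10. For all genes tested its median was 18%, with the 90th percentile at 64.7%.

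Hoxd4, a central gene by its number, was at 12.6, 1.04 and 10.5 CPM in crypts and 0.299, 0.43 and 0 in the day 3 monolayers, 0.344, 0 and 0 in those of day 4 and 0, 0 and 0.52 in those of day 5. With 187 reads in crypts and 16 in all monolayers, its pooled level was 44.1-fold lower in monolayers (exact 95% interval 26.5 to 78.8, counting error only). It passed the filter through crypts alone, so its fitted log2 fold change of -5.49 ± 0.81 (SE) is given as a description. Hoxd3, which shares exon bases with Hoxd4 in GENCODE M21, was at 5, 0.261 and 3.61 CPM in crypts and had a single read in monolayers, at day 4. Its pooled level was 253-fold lower in monolayers (exact 95% interval 43.9 to 10135), and it did not pass the filter on low counts. Both genes were lowest in crypts 2. Hoxd8 had 13 reads in crypts and 7 in monolayers. Summed Hoxd CPM was 74.2, 7.95 and 19.1 in crypts and 8.22 to 17.2 in monolayers, so the crypt mean of 33.8 ± 35.5 (SD, n = 3) rests on crypts 1 (13.5 without it).

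**Figure D4:**
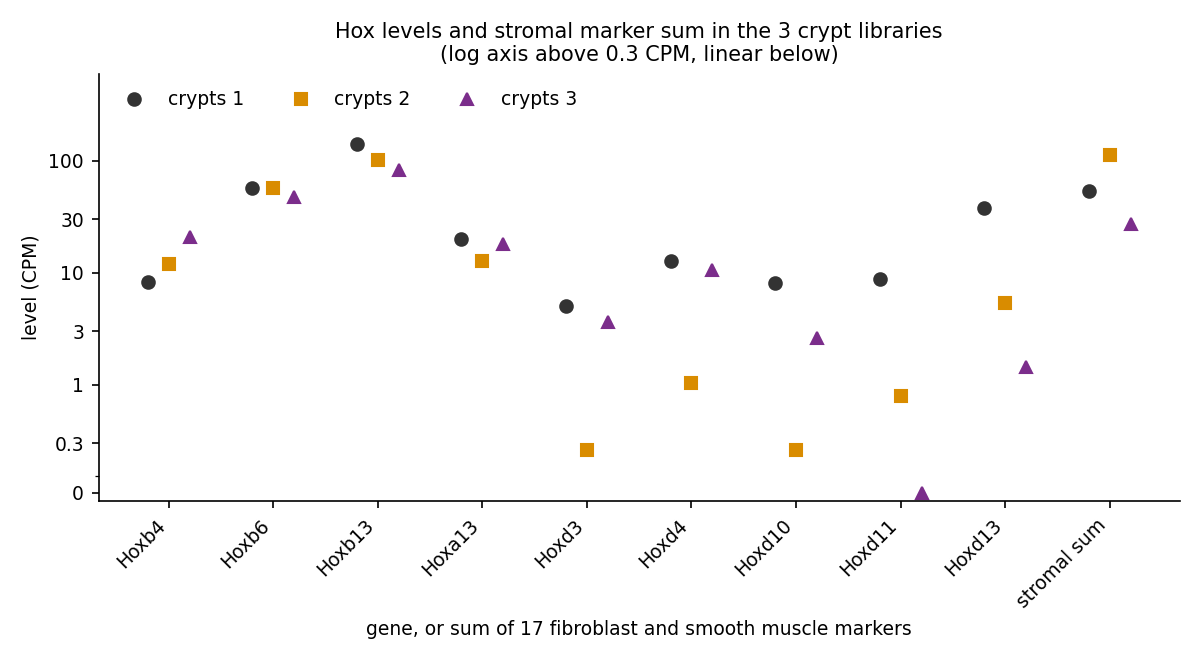
Levels (vertical axis, CPM, logarithmic above 0.3 and linear below) of selected Hox genes and the sum of 17 fibroblast and smooth muscle markers in the 3 crypt libraries (markers by library, horizontal axis by gene). Hoxd13 ranges from 1.44 to 38 CPM, Hoxb6 from 47.1 to 56.7, and the stromal sum from 27 to 113.

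By paralog number, the members called in monolayers split as follows. Of numbers 2 to 8, 9 tested genes fell (Hoxa2, Hoxb3, Hoxb4, Hoxd4, Hoxb5, Hoxb6, Hoxa7, Hoxb7 and Hoxb8) and none rose. Of numbers 9 to 13, Hoxa9, Hoxa10, Hoxa11 and Hoxa13 rose, and Hoxb9 and Hoxb13 fell. By class, 2 of 4 tested anterior genes, 7 of 10 central and 2 of 10 posterior genes were called lower. Of the posterior genes 4 were called higher. Over all genes tested, 32.8% were called lower and 30.7% higher. These counts include Hoxb8 and Hoxd4, which passed the filter mainly or only through crypts. They also include Hoxa2, whose call held in 9 of 16 alternatives. Number 7 was the only one from 1 to 13 at which all tested paralogs were called the same way with more than 1 tested. At number 9 paralogs split, Hoxa9 rising and Hoxb9 falling. At number 13 Hoxa13 rose, Hoxb13 fell and Hoxd13 was not called. Within each library the ratio of Hoxa13 to Hoxb13 was 0.126 to 0.217 in crypts and 0.317 to 0.569 in monolayers. Posterior genes held 42.3 to 55.3% of Hox CPM in crypts and 73.1 to 78% in monolayers, central genes 36.6 to 48.7% and 14.7 to 20.7%, and anterior genes 8.19 to 9.63% and 5.52 to 9.31%. The summed level of posterior genes was 231 ± 68.6 CPM (SD, n = 3) in crypts and 228 ± 35.7 (n = 9) in monolayers, and that of central genes 198 ± 26.8 and 54.3 ± 9.93.

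Levels of different genes were compared as CPM per kilobase of exon. In crypts the order was Hoxb13 (49 ± 13.1, SD, n = 3), Hoxb6 (27.2 ± 2.8), Hoxa7 (22.2 ± 6.43), Hoxb9 (16.6 ± 2.55) and Hoxb7 (13.2 ± 5.03). The SD ranges of neighbours from Hoxb6 to Hoxb7 overlapped, and that of Hoxb13 lay apart. In monolayers (n = 9) it was Hoxb13 (36.5 ± 8.7), Hoxa10 (18.1 ± 2.56), Hoxa13 (13.1 ± 2.51), Hoxa7 (10.1 ± 1.75) and Hoxa9 (8.61 ± 1.89). The SD ranges of neighbours from Hoxa10 to Hoxa9 overlapped there, and that of Hoxb13 again lay apart. Hoxa10 stood at the 11th place in crypts, and Hoxb6 at the 12th in monolayers. Hoxb13 was first in both.

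The second question was how the pattern compared over culture days. Of the 24 tested genes, the comparison with crypts called 15 on the first of these days, 13 on the next and 14 on the last, or 62.5, 54.2 and 58.3%, against 56.3, 57.1 and 57.3% of all genes tested. These comparisons share the same 3 crypt libraries. Hoxb3 to Hoxb9 were called lower and Hoxa10, Hoxa11 and Hoxa13 higher on each day. Hoxa6 (-1.10, edgeR adjusted p = 0.0151) and Hoxd10 (-2.88, edgeR adjusted p = 0.0135) were called lower at day 3, and both calls were lost without crypts 1 (edgeR adjusted p = 0.0615 and 0.156). Hoxb6, for example, changed by -4.05 ± 0.27 at day 3, -3.35 ± 0.26 at day 4 and -3.58 ± 0.27 at day 5 (edgeR adjusted p = 3.17e-10, 2.88e-09 and 2.22e-09). Hoxa10 changed by 1.39 ± 0.15, 1.52 ± 0.15 and 1.75 ± 0.15 (edgeR adjusted p = 2.74e-07, 9.72e-08 and 1.71e-08).

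Between days, 3 of 24 Hox genes rose from day 3 to day 5 and none fell, or 12.5%, against 20.4% of all genes tested. Hoxb13 was at 66.1 ± 3.98 CPM (SD, n = 3) at day 3 and 103 ± 8.77 at day 5, without overlap (0.64 ± 0.16, edgeR adjusted p = 0.00736). Against crypts it was -0.70 ± 0.16 at day 3 (edgeR adjusted p = 0.0011), -0.58 ± 0.16 at day 4 (adjusted p = 0.0048) and -0.06 ± 0.16 at day 5 (adjusted p = 0.78). Hoxa13 was at 25.3 ± 1.55 and 37.8 ± 5.12 CPM, also without overlap (0.58 ± 0.17, edgeR adjusted p = 0.0208). Hoxa6 was at 3.76 ± 0.218 and 8.04 ± 2.86 CPM (1.12 ± 0.36, edgeR adjusted p = 0.0353). With the replicate number as a block the call of Hoxa6 was lost (1.11, edgeR adjusted p = 0.0508). Both Hoxa6 and Hoxa13 lost their calls in omissions of single day 3 or day 5 libraries: Hoxa6 in 5 of 6 and Hoxa13 in 4 of 6.

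From day 3 to day 4, 0 Hox genes were called with edgeR and 0 with DESeq2, against 2.77% of all genes tested, and Hoxa6, Hoxa13 and Hoxb6 had an unadjusted p under 0.05. From day 4 to day 5, 0 were called with edgeR against 7.56% of all genes, and 1, Hoxb13, with DESeq2 and at an unadjusted p under 0.05. The wide values of Hoxd10 and Hoxd11 did not pass the test from day 3 to day 5 (2.12 ± 0.94 and 2.01 ± 1.08, edgeR adjusted p = 0.123 and 0.215). Summed Hox CPM averaged 471 ± 83.3 (SD, n = 3) in crypts, and the day 3, day 4 and day 5 monolayers averaged 262 ± 9.26, 292 ± 10.3 and 361 ± 11.3.

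**Figure D5:**
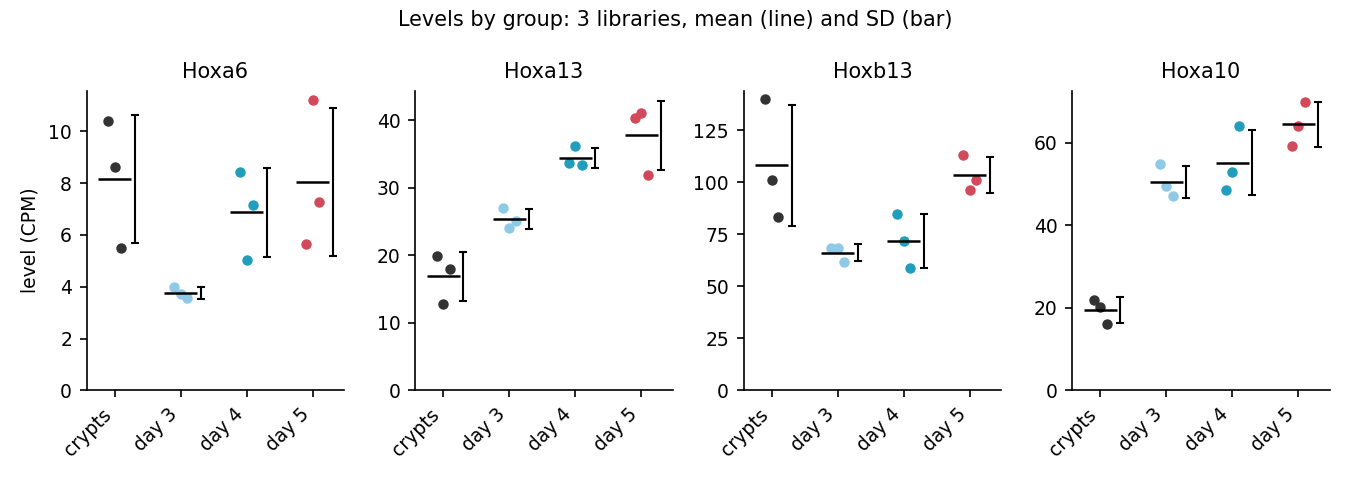
Levels (vertical axis, CPM, from 0) of Hoxa6, Hoxa13, Hoxb13 and Hoxa10 in crypts and at each day (horizontal axis), with 3 libraries as points, the mean as a line and the SD as a bar. Hoxb13 lies at 61.6 to 68.6 CPM at day 3 and 96.3 to 113 at day 5, inside the crypt range of 83.2 to 140.

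Inside the clusters lie noncoding genes, of which 10 of 20 listed were in the files and 3 were tested. All 3 were called lower over the mean of the days, beside 32.8% of all genes tested. The call of Hoxa11as, described above, was lost in some alternatives and did not hold at day 5. Mir196a-1, the gene of a microRNA between Hoxb13 and Hoxb9, was at 7, 7.95 and 7.75 CPM in crypts and 1.4, 0.788 and 1.14 in the day 3 monolayers, 0.947, 2.52 and 2.18 in those of day 4 and 0.403, 2.42 and 2.94 in those of day 5, without overlap. It fell 4.72-fold (-2.24 ± 0.42, edgeR adjusted p = 0.000132). Gm53, a noncoding gene of the Hoxb cluster added after its values were seen and so given without a test, was at 28.6, 24.8 and 30.6 CPM in crypts and between 8.94 and 24.2 (median 11) in monolayers. The Mir196a-1 values are total RNA reads over the hairpin locus and do not measure the mature microRNA. The mature sequences from RefSeq (GRCm38.p6) are shown because miR-196 is a known regulator of Hoxb8, with the seed, bases 2 to 8, in capitals, beside the site in the 3′ UTR of the Hoxb8 transcript (GENCODE M21), in which the bases opposite the seed are in capitals:
miR-196a-5p, chr11:96265187-96265208, plus strand: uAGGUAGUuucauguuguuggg
miR-196b-5p, chr6:52230129-52230150, minus strand: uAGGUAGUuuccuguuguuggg
Hoxb8 site, transcript strand: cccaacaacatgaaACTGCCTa
Both microRNAs share the seed AGGUAGU, and the second, from the Hoxa cluster, had 0 to 0.56 CPM in monolayers. Over its 22 bases the Hoxb8 site differs from a full complement of miR-196a-5p by 1 base, A5G, with positions counted from the microRNA's 5′ end and the base of the full complement first. This difference lies within the seed and sets a G of the site opposite a U of the microRNA, a wobble pair that RNA can form. The site is thus not a strict complement of the seed at that base. Among Hox transcripts, only Hoxb8 held a site with at most 3 mismatches. Hoxb8 and the Mir196a-1 locus both fell in monolayers.

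The gene 2700086A05Rik, an antisense RNA of the Hoxa cluster, was at 1.6, 3.78 and 5.23 CPM in crypts and 0 to 1.33 in monolayers (median 0.717). It fell 4.72-fold (-2.24 ± 0.54, edgeR adjusted p = 0.00134). In GENCODE M21 it overlaps Hoxa3 and Hoxa7. Of the tested Hox genes, 8 share exon bases with a gene on the opposite strand there, among them Hoxa3, Hoxa7, Hoxa11, Hoxb3, Hoxb5 and Hoxd4, and reads of such pairs may not be told apart.

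Among regulators of Hox genes, Cdx1, a ParaHox factor that activates Hox genes in the embryo, fell 15.4-fold, from 144, 120 and 151 CPM in crypts to between 0.604 and 13 in monolayers (median 10.2; -3.94 ± 0.23, edgeR adjusted p = 2.66e-11). Cdx2, the main intestinal Cdx factor, was at 108, 144 and 137 CPM in crypts and 61.6 to 112 in monolayers (median 92.8), with overlap. It fell 1.42-fold (-0.51 ± 0.12, edgeR adjusted p = 0.00131). Cdx4 had no read. Of the 6 genes of this list, 3 were tested, 2 of them lower and none higher, beside 32.8% of all genes tested called lower. Of 21 regional identity genes of the gut, 17 were tested, 12 lower and 2 higher (median -0.90), beside 32.8% of all genes tested called lower and 30.7% higher. Aqp8, a water channel of colon surface cells, fell from 223 ± 27.8 CPM (SD, n = 3) to 0.711 ± 0.603 (n = 9; -8.73 ± 0.18, edgeR adjusted p = 1.63e-17). Onecut2 had 0 reads in crypts and was at 2.18 ± 2.72 CPM in monolayers, and Fabp6 was at 8.12 ± 7.26 CPM in crypts and had 0 reads in monolayers. Both passed the filter through 1 group alone, so these values are a description.

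Retinoic acid genes moved in both directions: of 11 tested, 5 were higher and 3 lower (median 1.67), beside 63.5% of all genes tested called. Aldh1a3, which makes retinoic acid, rose from 0.741 ± 0.747 CPM (SD, n = 3) to 77.8 ± 9.52 (n = 9, log2 fold change 6.99 ± 0.28). Rdh10, which makes its precursor, rose from 11.3 ± 1.25 to 137 ± 14.3 CPM (3.59 ± 0.12, edgeR adjusted p = 1.36e-14). Cyp26b1, which breaks retinoic acid down, rose from 0.267 ± 0.462 to 16.2 ± 12 CPM (6.03 ± 0.63). Aldh1a3 and Cyp26b1 passed the filter through monolayers alone, so their values are a description. The 3 that fell, named after their values were seen, were Aldh1a1, another enzyme that makes retinoic acid, from 149 ± 35.7 to 25.1 ± 10.4 CPM (-2.71 ± 0.15, edgeR adjusted p = 1.07e-11), and the receptor genes Rxra (-0.83 ± 0.11, edgeR adjusted p = 1.71e-06) and Rara (-0.53 ± 0.17, edgeR adjusted p = 0.00978). The Rara groups overlapped. By day Rara was called lower at day 3 (-0.89, edgeR adjusted p = 0.00134) and not at day 4 or day 5 (edgeR adjusted p = 0.0808 and 0.308).

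Of 30 Polycomb genes, all tested, 12 were higher, 4 lower and 14 not called (median 0.22), beside 63.5% of all genes tested called. Cbx6 and Yaf2, both subunits of Polycomb complex 1, rose by 1.75 ± 0.24 and 1.5 ± 0.16 on the log2 scale (edgeR adjusted p = 3.87e-06 and 2.18e-07), and Phf19, an accessory subunit of complex 2, fell by 1.64 on the log2 scale (SE 0.49, edgeR adjusted p = 0.00712), a call lost without crypts 3 (-1.30, edgeR adjusted p = 0.0732). By day Phf19 was called at day 5 (edgeR adjusted p = 0.00213) and not at day 3 or day 4 (edgeR adjusted p = 0.201 and 0.177). Of 13 Trithorax and H3K27 demethylase genes, 5 were higher and 1 lower (median 0.14), beside 30.7% of all genes tested called higher and 32.8% lower. The increases included Kdm6b, an H3K27 demethylase (0.92 ± 0.08, edgeR adjusted p = 9.83e-09), Mllt3 (0.78 ± 0.09, edgeR adjusted p = 5.32e-07) and Dot1l, an H3K79 methyltransferase (0.72 ± 0.09, edgeR adjusted p = 1.01e-06). Of the 9 TALE cofactors, which bind DNA together with Hox proteins, 6 were tested, 1 higher and 1 lower (median -0.23), again beside 63.5% called over all genes. Pbx4 rose from 0.541 ± 0.937 to 4.87 ± 1.7 CPM (2.83 ± 0.69). Among crypts it was read in crypts 3 alone, and it passed the filter through monolayers, so these values are a description. Pbx2 fell by 0.43 on the log2 scale (SE 0.17, edgeR adjusted p = 0.0337), a call lost in 9 alternatives.

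Of 17 protein-coding genes that flank the clusters, 14 were tested, 5 higher and 2 lower (median 0.35), beside the same 63.5% of all genes called. Ttll6, next to Hoxb13 at the edge of the Hoxb cluster, fell 14.7-fold, from 55, 40.9 and 40.2 CPM in crypts to between 1.2 and 4.68 in monolayers (median 3.44; -3.88 ± 0.22, edgeR adjusted p = 1.82e-11). Snx10, near the Hoxa cluster, rose 2.8-fold (1.49 ± 0.22, edgeR adjusted p = 9.46e-06). Atp5g3, beside the Hoxd cluster, fell 2.33-fold (-1.22 ± 0.08, edgeR adjusted p = 1.7e-10).

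Single markers of other cells stood beside these values. Vim, a stromal gene, was at 12.4, 13.3 and 6.13 CPM in crypts and 0.456 ± 0.745 (SD, n = 9) in monolayers, and Ptprc, the pan-leukocyte gene, at 21.6, 19.7 and 9.56 and 0.232 ± 0.235. The 2 immune markers that rose, named after their values were seen, were Cd68, from 1.35 ± 0.743 to 31.3 ± 9.38 CPM, and Csf1r, from 0.287 ± 0.0966 to 2.27 ± 2.1. The immune sum of monolayers, 24.7 to 54.6 CPM, included this Cd68 signal. Of the 8 immune markers tested 5 fell, and Emr1, on the same list, had 0 reads in crypts and in monolayers. Among crypts, the library with the least stromal signal, crypts 3, had the highest Hoxb4, Hoxb7, Hoxb8 and Hoxb9. Crypts 2, with the most, had the highest Hoxb3, Hoxb5 and Hoxb6, and Hoxb6 was lowest in crypts 3. The part of these cells in the Hox values was not tested.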

How the data were processed

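The values used are read counts per gene that the authors deposited, 1 file per library, whole numbers with no normalization. The RNAqueous Micro kit yielded the RNA, per the labels' protocols. CASAVA 1.9, TopHat2 and HTSeq were used per the submitters' processing notes, which name the builds mm9 and mm10 without a role. Annotation and strand setting: not given in the sources used here. The 5 summary lines of each file name no gene and stayed out. Reads in no gene held 38.7 to 49% of those counted and reads without a unique alignment 14.2 to 19.2%.

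Samples were grouped by the labels. Counts were fitted in R 4.3.3 with edgeR 4.0.16 (glmQLFit and glmQLFTest, TMM factors 0.91 to 1.12, filterByExpr with a minimum count of 10), all 12 libraries in 1 fit with the group as its term. P-values were adjusted by Benjamini-Hochberg over 12863 genes and genes called under 0.05. Monolayers against crypts is the mean of the 3 days minus crypts. Each standard error is the log2 fold change divided by the root of F. Summed CPM, ratios and lists are given as values without a test. Exon lengths are merged exons of GENCODE M21. Every tested Hox gene is named except 1 that is not reported here, and up to 3 called genes of each list, those with the largest change and a mean of at least 1 CPM. The members and lists were chosen with earlier results of these data known. Every pair of libraries within a group differed by more than sampling noise. On simulated counts for monolayers against crypts (12683 genes), 70% of 100 genes changed 2-fold and 98% of 100 changed 4-fold were recovered, with 9 false calls. Genes of low level were not among those changed, and all other genes stayed unchanged, whereas 63.5% of genes were called in the data. Recovery of low genes, or with so many genes changed, was not tested. Alternatives were DESeq2 1.42.0, no TMM factors, no filter, only the libraries compared, a replicate block and omission of each library.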

Additional observations from a re-analysis of the deposited data

Results flagged for a closer look

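The flagged results are the 3 Hox genes called in the day 5 against day 3 comparison described above. They were 12.5% of the 24 tested, against 20.4% of all genes tested. Hoxa6 and Hoxa13 lost their calls in most omissions of single libraries, and Hoxa6 with the replicate block. The log2 difference was 0.64 for Hoxb13, 0.58 for Hoxa13 and 1.12 for Hoxa6, with all 3 higher at day 5 (edgeR adjusted p = 0.00736, 0.0208 and 0.0353). All 3 day 5 libraries lay above all 3 day 3 libraries for each of the 3 genes. The same held for Hoxa3, Hoxa7, Hoxa10, Hoxb8, Hoxd10 and Hoxd11, which were not called. How many of all genes were separated in this way was not computed. These separations are therefore a description and not a trait of Hox genes. At day 5 all 3 Hoxb13 values lay inside the crypt range, 2 of 3 Hoxa6 values did, and all 3 Hoxa13 values lay above it.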

How the results depend on the processing

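Of the 15 Hox genes called between monolayers and crypts, 12 kept their direction and call in all 16 alternatives. They were Hoxb3 to Hoxb9, Hoxa7, Hoxa10, Hoxa11, Hoxa13 and Hoxd4. For Hoxd4 and Hoxb8 this is a description, since Hoxd4 passed the filter through crypts alone and Hoxb8 mainly through crypts. Hoxa2, Hoxa9 and Hoxb13 did not. Counts of called genes ranged from 14 to 20 for monolayers, 14 to 20 for day 3, 13 to 17 for day 4 and 11 to 18 for day 5 against crypts. For day 4 against day 3 the count was 1 (Hoxa13) with only the libraries compared. For day 5 against day 4 it was 1 (Hoxb13) with DESeq2, with no filter, with only the libraries compared and with the replicate block, and 0 to 1 when single libraries were left out (1 without day 4 replicate 1). For day 5 against day 3 it was 5 with only the libraries compared, and 1 to 3 when single libraries were left out (1, Hoxb13, without day 3 replicate 2, day 3 replicate 3 or day 5 replicate 2). Summed Hoxb CPM of crypts was 303 with no TMM factors, against 275. For monolayers against crypts, 5 log2 fold changes that were not called changed sign when single libraries were left out: Hoxa3 (range -0.39 to 0.23), Hoxa5 (-0.48 to 0.03), Hoxd11 (-1.30 to 2.38) and Hoxd13 (-1.69 to 1.0), each positive without crypts 1, and Hoxd12 (-0.35 to 5.70), negative without crypts 2 (-0.27), crypts 3 or day 4 replicate 1 (-0.08). The cause was not tested. Over all single genes, those named here included, 48 values lost a call and 16 gained one.

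The replicate numbers did not pair the libraries: deviations of same-numbered libraries correlated at -0.0336 to 0.0585 over genes. With the replicate block, 15 Hox genes were called between monolayers and crypts and 2 from day 3 to day 5. For monolayers against crypts, a fit of only the libraries compared is the same fit. Few or no reads limit what can be said of Hoxc, Hoxb2 and most Hoxd genes, and posterior Hoxd genes also varied widely between crypt libraries. The part of depth in this was not tested.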
